A study of Homo sapiens with 21 samples.

Results

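ITGAX encodes integrin αX, or CD11c, one of the CD11 chains that pair with the β2 chain CD18 at the surface of leukocytes. It was 1 of 53 loci for which three-way chromatin contacts were deposited. Its members were chosen by name, as all 7 pair-count libraries of the ITGAX locus out of 371 in the series, so the counts of the integrin genes that flank ITGAX were included. BLaER1 is a human leukaemia line of B cell origin in which an estradiol-activated C/EBPα transgene, together with IL-3 and CSF-1, drives conversion into induced macrophages, or iMacs. Tri-C was run from an enhancer viewpoint at 0 h (no conversion factors), 24 h and 96 h. The same times were sampled from another viewpoint, a CTCF-bound site (CBS) at which the contact domain ends. An additional enhancer library, 96h-depl, came from a BLaER subclone whose CTCF carries an auxin-inducible degron (CTCF-AID), at 96 h with auxin. The 96 h control libraries are labelled BLaER without that subclone, so the subclone, auxin and the loss of CTCF cannot be told apart. Each of the 7 groups had 3 biological replicates, which the authors pooled into 1 library, so no value has a replicate check and none was tested. The locus was also proposed with its contact changes in view, and changes at ITGAX are therefore given as a description.

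CD11 chains are the variable chains of the β2 integrins, which bind adhesion ligands and complement-coated particles. ITGAL (CD11a) is used by most leukocytes, ITGAM (CD11b) and ITGAX (CD11c) are classical markers of monocytes, macrophages and dendritic cells, and ITGAD (CD11d) is found on some macrophages. Their genes lie on the short arm of chromosome 16, where ITGAM, ITGAX and ITGAD follow each other on the same strand. CTCF, a zinc-finger protein, halts the extrusion of chromatin loops by cohesin, and its sites commonly mark the borders of contact domains.

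All positions are in hg38. The ITGAX gene spans chr16:31355176-31382999 on the forward strand. The enhancer viewpoint lay in an intron of ITGAM, 53.2 kb before the ITGAX start, 42 kb after that of ITGAM and 91.4 kb before that of ITGAD. The boundary CBS viewpoint lay in an intron of ARMC5, 159 kb from the enhancer and 106 kb beyond the ITGAX start. ITGAL started 829 kb upstream of the enhancer. The NlaIII fragments at both viewpoints are shown because every count below contains 1 of them. They were placed in the stretch around each viewpoint that holds no reporters, 1743 bases wide at the enhancer and 1448 at the boundary.
Enhancer viewpoint fragment, chr16:31301899-31302068, forward strand: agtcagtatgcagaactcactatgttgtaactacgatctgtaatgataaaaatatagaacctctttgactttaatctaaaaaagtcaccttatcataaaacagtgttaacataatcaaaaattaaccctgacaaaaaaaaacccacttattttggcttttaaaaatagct
Boundary CBS viewpoint fragment, chr16:31460903-31461192, forward strand: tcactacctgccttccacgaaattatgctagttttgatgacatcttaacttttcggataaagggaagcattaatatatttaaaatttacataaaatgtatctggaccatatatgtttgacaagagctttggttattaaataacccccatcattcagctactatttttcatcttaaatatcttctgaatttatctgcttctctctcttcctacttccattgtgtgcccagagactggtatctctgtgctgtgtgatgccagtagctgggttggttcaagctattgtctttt
ITGAM promoter upstream of the start, chr16:31259725-31259974, forward strand: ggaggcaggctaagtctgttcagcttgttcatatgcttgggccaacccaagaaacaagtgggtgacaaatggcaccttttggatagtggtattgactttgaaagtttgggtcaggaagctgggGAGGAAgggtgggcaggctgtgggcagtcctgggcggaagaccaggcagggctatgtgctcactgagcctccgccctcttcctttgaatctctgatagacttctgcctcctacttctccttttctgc

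Capitals mark motif letters found on either strand. The letters searched were TTNNGCAA for C/EBP, GAGGAA for PU.1 and other ETS factors, and CCANNAG followed directly by NNGGC for CTCF. Neither viewpoint fragment held any of them. The ITGAM promoter, printed from the RefSeq table as the integrin promoter it holds, had 1 GAGGAA, as did 23.6% of all promoters of the table over the same 250 bases. Within 1 kb of the centre of the boundary viewpoint there was 1 CTCF match, GCCTCCTAGTGG as read on the forward strand and a match on the reverse strand, at chr16:31460867-31460878. Of stretches of that length laid across the region, 7.71% held such a match.

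A three-way count is 1 observation of 2 reporter fragments together with the viewpoint. Within 1 Mb of the viewpoint there were 59199, 51805 and 49296 enhancer counts over the 3 times, with 62219 in 96h-depl. These fell on 27369, 24998 and 23423 distinct fragment pairs, and on 21530 in 96h-depl. Of the enhancer libraries, 96h-depl thus had the most counts on the fewest pairs, and every comparison on depletion rests on it. The CBS libraries held 13079, 15107 and 12563 counts, fewer than any of the other 50 loci summarised here, and values from that viewpoint are correspondingly coarse. Distant counts are those in which the viewpoint and both reporters were all separated by more than 10 kb. They made up 32.8%, 32.8% and 32.6% of the enhancer counts at 0, 24 and 96 h, and 22.9% in 96h-depl. E-ITGAX-X denotes distant counts with a reporter in the 12 kb around the ITGAX start, as a share of all counts within 1 Mb. That window also holds a promoter-proximal CTCF site, which cannot be told apart from the promoter. Changes are log2 odds ratios of 1 pooled library to another, and brackets hold 95% intervals. These intervals cover counting error only and are too narrow, since all pairs of reporters of a read were counted. A window was called higher or lower where it was past 1.5-fold with an interval that left out no change, at 100 or more counts over both libraries.

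The first comparison asked how enhancer contacts with the integrin promoters differed along conversion. E-ITGAX-X made up 1.27% [1.18, 1.37] of counts at 0 h and 1.37% [1.28, 1.48] at 24 h. It stood at 2.14% [2.01, 2.27] at 96 h, with 1.32% [1.23, 1.41] in 96h-depl. The 96 h library stood above the other 3, whose intervals overlapped. The change was 0.11 [-0.04, 0.26] from 0 h to 24 h and 0.65 [0.51, 0.79] from 24 h to 96 h, a 1.57-fold higher odds. Against 0 h, the 96 h library was 0.76 [0.63, 0.90] higher, or 1.70-fold. With windows of 30 kb both 96 h changes came to 0.47 [0.38, 0.56], under 1.5-fold.

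ITGAM, which contains the enhancer and starts at a shorter distance from it on the other side, was level. Its E-ITGAM-X share was 1.78%, 1.73% and 1.85% at 0, 24 and 96 h, with 1.45% in 96h-depl, and its change from 0 h to 96 h was 0.06 [-0.07, 0.19]. ITGAD held 1.39%, 1.38%, 1.55% and 1.10% in the same order, with a change of 0.16 [0.02, 0.30] at 96 h. ITGAL had 15, 24, 14 and 19 counts in the 4 enhancer libraries, at most 0.0463% of counts, and was not measured. Of the CD11 genes that could be measured, ITGAX was thus the 1 called higher at 96 h. Scaled by NlaIII fragments in the window, the order of levels also differed between times. Per fragment and 100000 counts, ITGAX held 22.7 counts at 0 h against 27.4 at ITGAM and 17.8 at ITGAD. At 96 h it held 38.2 against 28.5 and 19.9, and in 96h-depl 23.6 against 22.4 and 14.1. Stretches of 50 letters that recur exactly elsewhere in the region made up 1.67% of the ITGAX window. They made up at most 1.32% of the windows of the other 3 integrin genes. Near copies and copies outside the region were not counted, so confusion with a paralogue was not tested beyond exact repeats.

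**Figure D1:**
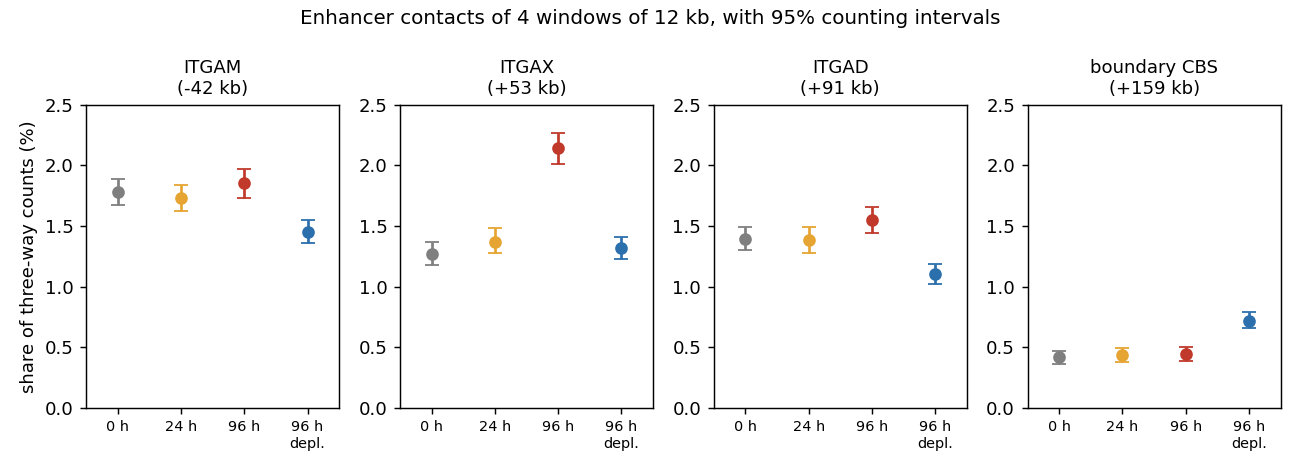
Share of three-way counts within 1 Mb (y axis, percent) in 12 kb windows at ITGAM, ITGAX, ITGAD and the boundary CBS, for the 4 enhancer libraries (x axis). Points are pooled libraries and bars exact 95% counting intervals. ITGAX stands at 2.14% at 96 h and between 1.27% and 1.37% elsewhere, while the boundary window is highest in the depleted library at 0.718%.

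Among the measured promoters of the region, ITGAX ranked low at 24 h and highest from 24 h to 96 h. There were 60 protein-coding genes with a start within 1 Mb. From 0 h to 24 h, 11 of 39 measured promoters were called higher, against 17.6% of windows laid every 6 kb across the region, and ITGAX was not among them. Windows of close promoters overlap, so these promoters are not all separate. Above the 0.11 of ITGAX lay 29 promoters and 95 of 210 windows, and ITGAM (-0.04) and ITGAD (-0.01) were also near 0. From 24 h to 96 h ITGAX was the 1 promoter of 37 called higher, where 1.49% of windows were, and 1 of 201 windows had a larger change. From 0 h to 96 h, 8 of 35 promoters were called higher, against 11.6% of windows, and 10 of 199 windows and 4 promoters exceeded ITGAX.

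The promoters with larger values at 96 h lay upstream, on the far side of ITGAM. PYCARD, which encodes the inflammasome adaptor ASC, held 1.27%, 1.94% and 2.39% of counts at 0, 24 and 96 h and 1.78% in 96h-depl. Its change was already 0.62 at 24 h and reached 0.93 at 96 h. BCKDK, a kinase of branched-chain amino acid breakdown, and KAT8, a histone acetyltransferase, were 0.90 and 0.83 higher at 96 h. A further 3 called promoters lay between 207 kb and 228 kb upstream. The largest rise of any window was 106 kb upstream, with 503, 798 and 1050 counts over the 3 times and 738 in 96h-depl. Its change at 96 h was 1.34 [1.19, 1.5], and its window overlaps that of PYCARD.

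Of the pyrin-domain genes, PYCARD was called higher at 96 h and PYDC1, which encodes a pyrin-only inhibitor, stood at 0.17. None of the serine protease genes was called at 96 h, with 0.43 at PRSS8 (prostasin), 0.45 at PRSS36 and 0.22 at PRSS53. TRIM72, COX6A2 and TGFB1I1 had changes of 0.18, 0.15 and 0.31. The 2 promoters called lower at 96 h, where 33.2% of windows were, lay on the other side of the boundary site. AHSP, which encodes the chaperone of α-haemoglobin, held 0.598%, 0.303%, 0.221% and 0.203% of counts in the 4 libraries, a change of -1.44 at 96 h. RUSF1 was at -0.74.

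**Figure D2:**
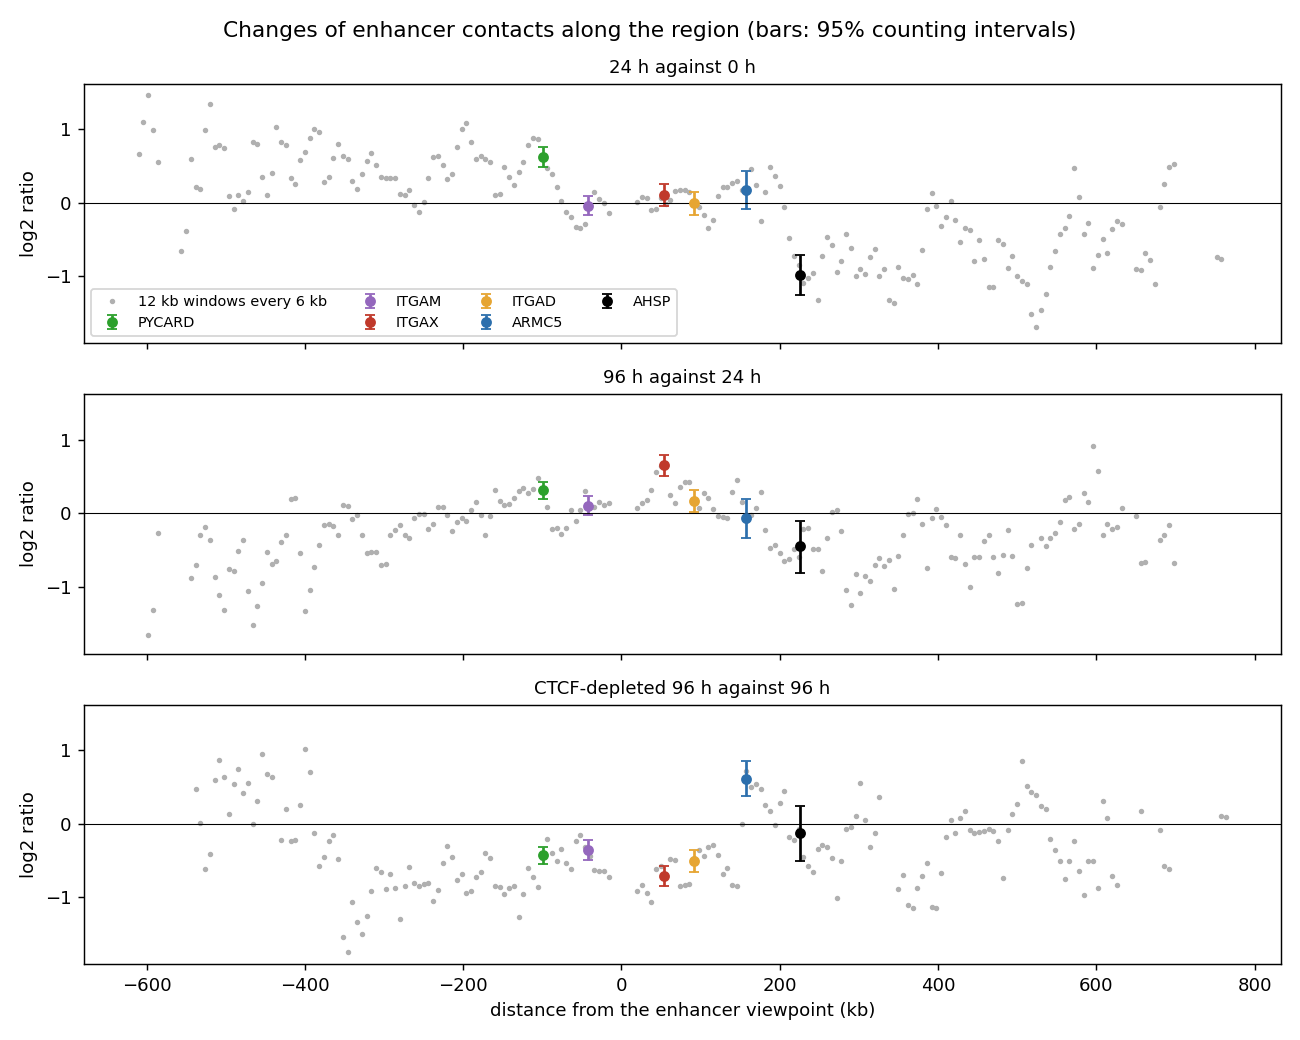
Log2 ratio of window counts (y axis) against the distance from the enhancer viewpoint in kb (x axis) for 3 pairs of pooled libraries. Grey points are 12 kb windows laid every 6 kb with at least 100 counts, and coloured points are named promoters with 95% counting intervals. ITGAX is near 0 at 24 h (0.11), tops the promoters from 24 h to 96 h (0.65) and is at -0.71 in the depleted library, while ARMC5, beside the boundary site, is at 0.61.

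On the boundary side of the enhancer, reporters beyond the boundary site were fewer at each later time. Those beyond the site made up 50.2% [49.6, 50.9] of distant reporters on that side at 0 h, 40.2% at 24 h and 31.2% [30.5, 31.9] at 96 h. The 96 h change was -1.15 [-1.21, -1.09], lower than at 30 of the 36 iMac loci, whose median was -0.685. In 96h-depl the share was 39.7% [38.8, 40.5], between the 24 h and 96 h values and still below 0 h. Its change against 96 h was 0.53 [0.47, 0.60].
The space between ITGAM and ITGAX took 4.74%, 4.57% and 6.26% of distant reporters at 0, 24 and 96 h, the body of ITGAX 4.74%, 5.20% and 6.65%, and that of ITGAD 4.98%, 4.68% and 4.93%. In 96h-depl these were 5.25%, 5.82% and 5.55%. The stretch past the boundary site held 28.4% at 0 h and 15.6% at 96 h. ITGAX and the stretch before it thus gained among distant reporters while the body of ITGAD stayed level.

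**Figure D3:**
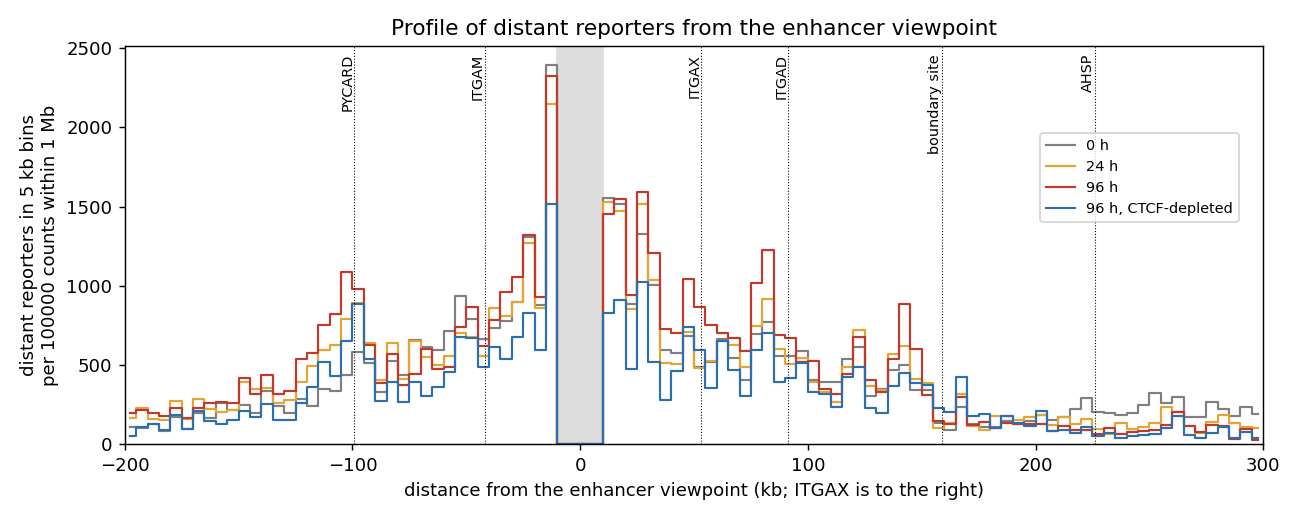
Distant reporters in 5 kb bins per 100000 counts within 1 Mb (y axis) against the distance from the enhancer viewpoint in kb (x axis) in the 4 enhancer libraries, with gene starts and the boundary site as dotted lines and the excluded 10 kb to each side in grey. At 96 h the profile stands above the other libraries around ITGAX, with 866 per 100000 in the bin that starts at 50 kb against 486 at 0 h, and from the bin that starts at 215 kb to the right edge 0 h is the highest of the 4.

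The third fragment of E-ITGAX-X contacts showed the same shift in position. At 0 h, 22.2% [19.3, 25.3] of the 753 counts that joined enhancer and ITGAX had their other reporter beyond the boundary site. This fell to 14.2% at 24 h and 7.96% [6.40, 9.76] of 1055 counts at 96 h, and was 13.0% [10.8, 15.5] in 96h-depl. Between the end of ITGAX and the boundary site lay 103, 80 and 184 of these reporters at 0, 24 and 96 h, and 100 in 96h-depl. The change there was 1.10 [0.75, 1.45] from 0 h to 96 h and -1.22 [-1.57, -0.86] in the depleted library.
Within the body of ITGAX the other reporters numbered 39, 52 and 91, a change of 1.48 [0.94, 2.02] at 96 h. They numbered 106 in 96h-depl, where the change against 96 h was -0.12 [-0.52, 0.29], unlike the other stretches on the near side of the boundary. For the ITGAM promoter, those between the end of ITGAX and the boundary site went the other way, with 122 at 0 h and 67 at 96 h (-0.60 [-1.03, -0.17]). Beyond the boundary site, ITGAM fell by 0.56 and ITGAD by 0.69 on the log2 scale, close to the 0.72 by which ITGAX fell.

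Contacts that joined the enhancer with a pair of integrin promoters were rare. Enhancer, ITGAX and ITGAD met in 25, 23 and 44 counts over the 3 times and 23 in 96h-depl, with a change of 1.07 [0.37, 1.77] at 96 h and -1.26 [-1.98, -0.54] on depletion. Enhancer, ITGAM and ITGAX met in 24, 36, 39 and 35 counts, 0.95 [0.23, 1.68] at 96 h and -0.49 [-1.14, 0.16] on depletion. Enhancer, ITGAM and ITGAD met in 13, 20, 20 and 17 counts. These counts were also scaled to distant counts and divided by the counts of both windows, as log2 values in the same order. They were -0.33, -0.35, -0.18 and -0.75 for ITGAX with ITGAD, and -0.74, -0.04, -0.60 and -0.56 for ITGAM with ITGAX. For ITGAM with ITGAD they were -1.73, -0.88, -1.08 and -1.32. For both pairs with ITGAX, 0 h and 96 h thus differed little once the single windows were taken into account. Enhancer, ITGAX and the boundary site met in 3, 1, 11 and 11 counts, too few for a ratio except on depletion, where it was -0.34 [-1.52, 0.84].

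**Figure D4:**
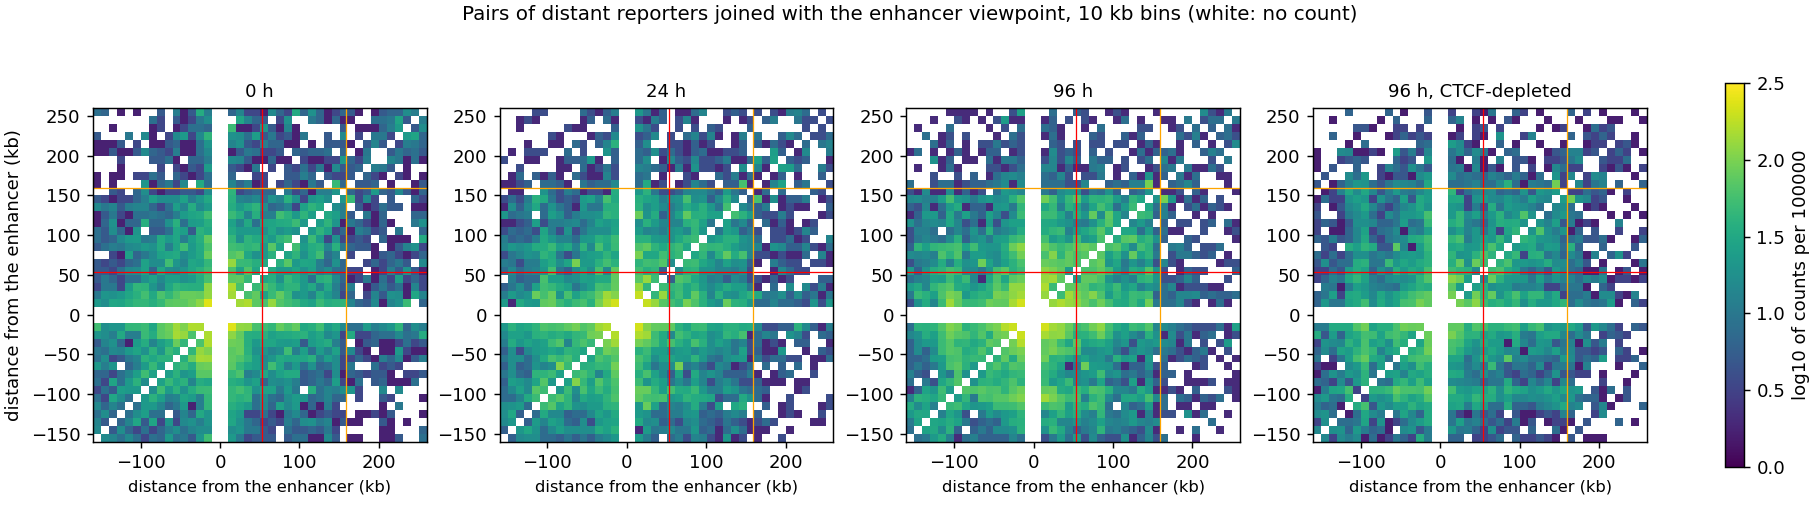
Counts of pairs of distant reporters seen with the enhancer viewpoint, per 100000 counts within 1 Mb on a log10 colour scale, in 10 kb bins by distance from the enhancer in kb (both axes), for the 4 enhancer libraries. Red lines mark ITGAX and orange lines the boundary site, past which the share of reporters on that side is 50.2% at 0 h and 31.2% at 96 h. The block between the enhancer and the boundary site is densest at 96 h.

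From the CBS viewpoint, no rise at ITGAX was detectable at this depth. C-ITGAX-X had 52 counts at 0 h, 53 at 24 h and 44 at 96 h, which is 0.398%, 0.351% and 0.350% of counts. The changes were -0.18 [-0.73, 0.37] at 24 h and -0.18 [-0.76, 0.40] at 96 h, so the upper bound lies under the 0.76 seen from the enhancer. C-ITGAD-X had 75, 115 and 84 counts and C-ITGAM-X 39, 54 and 48. Contacts of the boundary site with the enhancer window had 31, 67 and 43 counts, 0.89 [0.28, 1.51] at 24 h and 0.53 [-0.14, 1.19] at 96 h. With 98 and 74 counts over both libraries, neither change was measured by the same rule. With windows of 30 kb the 24 h value turned to -0.03. The reverse measure, E-C-X from the enhancer viewpoint, was 0.06 [-0.20, 0.33] at 24 h and 0.08 [-0.18, 0.35] at 96 h.

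The second comparison asked what differed in the CTCF-depleted library at 96 h. E-ITGAX-X was lower there by the 96 h measure, with 822 counts against 1055 and a change of -0.71 [-0.84, -0.58]. Against 0 h it was 0.06 [-0.09, 0.20]. The fall came with the lower share of distant counts as a whole. Relative to distant counts alone, ITGAX was at -0.20 [-0.34, -0.06] against 96 h and still 0.60 [0.46, 0.75] above 0 h. With each fragment pair counted once it was -0.28 [-0.44, -0.12]. Under neither setting was ITGAX called lower.
Lower values were widespread across the region: 14 of 36 promoters were called lower, as were 39.1% of windows, and 138 of 192 windows had a higher value than ITGAX. The median window was at -0.45. ITGAM was at -0.35 [-0.49, -0.22] and ITGAD at -0.50 [-0.65, -0.35], both short of 1.5-fold, and relative to distant counts they turned to 0.17 and 0.02. The deepest falls among promoters were at SETD1A (-1.40), which encodes a histone methyltransferase, and ORAI3 (-1.34), a calcium channel subunit, 344 kb and 353 kb upstream. BCKDK was at -1.08 and PRSS36 at -0.90. The window of ZNF843, chosen after its values were seen because it holds a peak of the profile just before the boundary, held 1.10%, 1.37%, 1.63% and 0.945% of counts, with -0.80 on depletion.

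Contacts with the boundary site went the other way. E-C-X had 246, 225 and 217 counts at 0, 24 and 96 h, and 447 in 96h-depl, that is 0.416%, 0.434%, 0.440% and 0.718% of counts. The change on depletion was 0.71 [0.47, 0.94], and 1.24 relative to distant counts. ARMC5, whose start lies in the same window, was 1 of 2 promoters called higher, at 0.61, against 5.73% of windows. The other was ZNF629, 515 kb upstream. TGFB1I1, 170 kb from the enhancer, was at 0.54. The rise took in the 6 kb directly before the site but not the sequence farther before it. In the 6 kb to 12 kb before it, reporters numbered 233 at 96 h and 182 in 96h-depl, against 144 and 306 in the 6 kb just before it and 157 and 277 in the 6 kb to 12 kb after it. A window of 30 kb, which takes in both stretches, gave 0.07.

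Among the 51 loci that the study classed by expression, ITGAX belonged to the 36 iMac loci. The other 15 were B cell loci. Its E-P-X change, the value of each locus at its own promoter, ranked low at 24 h, with 28 iMac loci above its 0.11 and a median of 0.395, and in the upper part from 24 h to 96 h, with 12 above its 0.65 and a median of 0.515. At 24 h, 19.6% of the 51 loci were called higher and from 24 h to 96 h 29.4%. On depletion 78.4% of loci were called lower, ITGAX among them, and its -0.71 was a smaller fall than the iMac median of -1.065. The share of distant counts fell by 0.70 on the log2 scale at ITGAX and by between 0.48 and 1.15 at all iMac loci.
The boundary contacts set ITGAX apart in rank. It was the 1 locus of 51 (1.96%) with E-C-X called higher on depletion, while 86.3% were called lower and the iMac median was -1.10. The next highest locus, CD38, was at -0.15. These values are shares of all counts, which the lower share of distant counts pulls down. Relative to distant counts, ITGAX was again highest at 1.24, but the iMac median was -0.57. Other loci then also lay above 0, among them CD38 (0.45), RBM47 (0.28) and DDIT4 (0.22). With windows of 30 kb at every locus, a choice made after seeing the data, ITGAX still had the highest value at 0.07, with RBM47 next at 0.02.

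**Figure D5:**
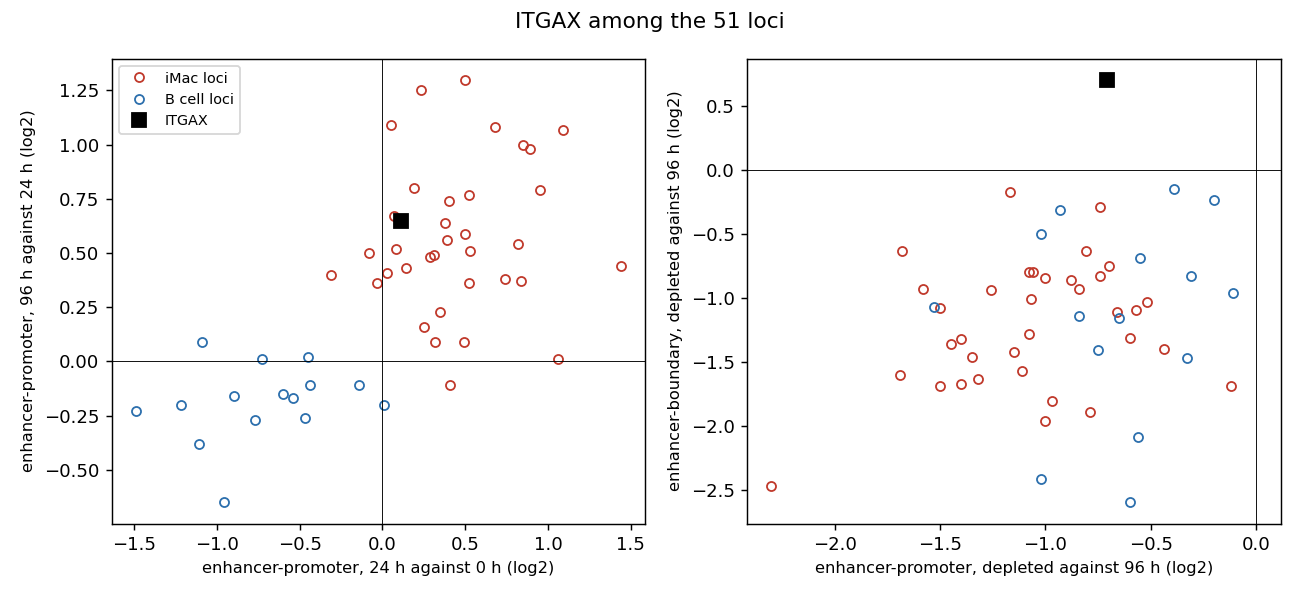
Log2 changes of the 51 loci in shares of all counts within 1 Mb, with iMac loci in red, B cell loci in blue and ITGAX as a black square. The left panel plots the E-P-X change from 24 h to 96 h against that from 0 h to 24 h, where ITGAX is at 0.65 and 0.11, and the right panel the E-C-X against the E-P-X change on depletion, where ITGAX is at 0.71 and -0.71 and no other locus is above 0 for E-C-X.

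By Euclidean distance over the 3 E-P-X changes at 24 h, at 96 h and on depletion, the loci nearest to ITGAX were CEBPA (0.21), DDIT4 (0.30) and ATP8B4 (0.38). CEBPA, which encodes C/EBPα itself, changed by 0.08, 0.60 and -0.57, against 0.11, 0.76 and -0.71 at ITGAX. DDIT4, a stress-induced inhibitor of mTOR signalling, changed by 0.35, 0.58 and -0.74, and ATP8B4, a lipid flippase, by 0.25, 0.41 and -0.74. On depletion E-C-X was called lower at CEBPA (-1.09) and ATP8B4 (-0.83), and it was not called at DDIT4 (-0.29).
The other iMac surface receptor loci had larger falls on depletion than ITGAX. PTPRC, which encodes CD45, had changes close to 0 at 24 h (0.05), 1.09 from 24 h to 96 h and -1.5 on depletion. The scavenger receptor gene CD163 had 0.07, 0.67 and -1.45. CD14, the co-receptor for lipopolysaccharide, had 0.39, 0.56 and -1.08, and CD93 0.29, 0.48 and -1.58. The chemokine receptor gene CCR1 had 1.09, 1.07 and -2.30. The cytokine receptor genes TNFRSF1B and IL10RA had 0.03, 0.41 and -1.08, and -0.03, 0.36 and -0.84. Like ITGAX, each of these loci except CCR1 had its larger change after 24 h, in 1 pooled library per time.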

How the data were processed

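Tri-C libraries were made by the authors from NlaIII-digested, ligated BLaER1 chromatin with capture at the viewpoints. They mapped reads to hg38 with CapCruncher, merged the 3 replicates (each of 3 technical replicates) and counted every pair of cis reporters of a read. The deposited unit is a count per fragment pair, without normalization. All 80989 fragments listed for ITGAX lie between 2 NlaIII sites of hg38.

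Here raw counts were used. Viewpoints were placed in the reporter-free gap of 1 to 6 kb with the most counts within 10 kb. At 1 of the 51 loci the gap did not hold the capture oligo of the study, and it was kept. Values of some genes and loci are not reported here, although they enter all counts. Promoters are canonical starts of GENCODE 44. A pseudo-count of 0.5 was added, pairs of windows needed 20 counts, and 12 kb around the boundary site were left out of crossing shares. Shares have exact Clopper-Pearson intervals. No test was run, because each condition had 1 pooled library. Genes named are the CD11 genes, listed neighbours, the 5 largest rises or falls per comparison, the 3 nearest loci and iMac surface receptors. Loci, members and lists were chosen with earlier results of these data known, and loci were classed as in the study, without IFNGR2 and TASL. Alternatives changed the window, exclusion, normalization, pair counting, viewpoint fragments, promoter start and call limits. Windows were tested on simulated data. Python 3.11.15, NumPy 2.4.6, pandas 2.3.3, SciPy 1.17.1 and matplotlib 3.10.9 were used.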

Additional observations from a re-analysis of the deposited data

How the results depend on the processing

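Depth limits the CBS values most, with at most 115 counts in an integrin window, and intervals there span about 1 unit of log2. No paired analysis was possible because each deposited library pools its 3 replicates, and for the same reason no replicate could be left out. The 24 h change of E-ITGAX-X and both C-ITGAX-X changes stayed within their intervals under the alternatives run. With windows of 30 kb, E-ITGAX-X changed by 0.47 at 96 h against both 24 h and 0 h, and E-C-X by 0.37 at 96 h and 0.07 on depletion. With windows of 7.5 kb, E-C-X was 0.41 at 96 h. Relative to distant counts, the depleted library gave -0.20 for E-ITGAX-X, 1.24 for E-C-X and 2 promoters called lower. Relative to the whole chromosome, E-ITGAX-X was 0.91 at 96 h against 0 h, with 14 promoters called higher. With each fragment pair counted once, E-C-X was 0.39 at 96 h and 0.96 on depletion, E-ITGAX-X -0.28 on depletion, and 4 promoters were lower. Crossing of the boundary was then -1.07 at 96 h and 0.46 on depletion. A lower fold limit gave 16 promoters higher at 96 h and 23 lower on depletion. Directions reversed for ITGAM in the depleted library relative to distant counts (0.17 against 96 h and 0.24 against 0 h) and with pairs counted once (0.07 and 0.16), for ITGAD (0.02 and 0.19) and PYCARD (0.09) relative to distant counts, and for C-E-X at 24 h with 30 kb windows (-0.03). The cause was not tested. Of the alternative values for the main comparisons, 88 stayed within the interval, or within 1.5 times the count, of the reported value and 18 moved further. Of those for the remaining comparisons of elements and promoters, 289 stayed, 39 moved and the 8 above reversed. Among the moved were 4 sign changes of values whose reported interval held 0, ITGAM at 96 h against 0 h with windows of 7.5 kb (-0.12), ITGAX in 96h-depl against 0 h with windows of 30 kb (-0.14), and AHSP on depletion relative to distant counts (0.38) and with pairs counted once (0.25).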
